A study of Sus scrofa with 21 samples.

Results

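Hearts of 1-week-old pigs that carried a myocardial infarction (MI) were compared with hearts of newborn naive pigs. The comparison takes the 3 MI hearts collected on postnatal day 7 against 4 naive hearts, 2 from day 1 and 2 from day 3, joined into 1 newborn group. These are 7 of the 21 libraries of the series, each from a separate pig. The members were picked by their labels, a choice made with earlier results of these data known. The comparison asks how far the injured week-old heart keeps or leaves the newborn state. In MI pigs the left descending coronary artery had been tied off for good on day 1, and their tissue came from the border zone of the ischaemic area. The naive tissue came from the matching region. The sample titles call these pigs naive, whereas the protocol describes age-matched animals operated on in every way but the tie, and the sources used here do not settle which applies. Per the protocol, pigs were fed bovine colostrum and later milk. No source used here gives sex, litter or library batch. Age and injury both differ between MI day 7 and newborn hearts and cannot be told apart in this comparison, so the 3 naive day 7 hearts are given beside them.

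In mammals, heart muscle cells of the newborn still divide and burn much glucose and lactate. Within days to weeks of birth most of them leave the cell cycle, and the heart turns to fatty acid oxidation in a growing pool of mitochondria. Around birth, injury of the mouse or pig heart can be followed by new muscle, an ability that is lost soon afterwards, and later injury is followed by inflammation and a collagen scar.

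Total counts per library were 75071994 to 92831231 in MI day 7 hearts, 37002909 to 48321350 in naive day 7 hearts and 51694314 to 61725346 in naive newborn hearts. The cardiomyocyte markers were abundant in every one of them: the 10 tested markers summed to 78948 to 83820 CPM (counts scaled to a common library total) in MI hearts and 72234 to 89513 CPM in newborn hearts. MI replicate 3 stood apart from the other MI hearts. It is 1 of 4 libraries of the series that had almost no ENSSSCG00000035520 (12.1 CPM, against 3000 to 3101 CPM in MI replicates 1 and 2 and 3239 to 5719 CPM in newborn hearts). Its mitochondrially encoded genes took 26.2% of the counts, against 16.6% and 18.0% in the other MI hearts and 16.6% to 21.6% in newborn hearts. ND1 alone took 1.19% of its counts, against 0.253% and 0.262% in the other MI hearts. ENSSSCG00000018073 stood at 41.6 CPM, against 0.0266 and 0.0431 CPM. The 4 libraries, from both MI and naive hearts, shared the low ENSSSCG00000035520, the high ND1 and the high ENSSSCG00000018073. They did not all share the high mitochondrial part of the counts. It was 19.2% in 1 of them, MI day 28 replicate 2, within the newborn range. The highest of the series, 34.6%, was in MI day 28 replicate 1, which is not among the 4. A difference between libraries and one between hearts cannot be told apart for MI replicate 3. Results that rest on this heart are therefore given with and without it. Values of the MI and naive day 7 hearts are listed by replicate, and 4 newborn values stand for the 2 hearts of day 1 and then the 2 of day 3.

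Across the whole transcriptome, MI day 7 hearts lay on average about as far from newborn hearts as newborn hearts lay from each other. The edgeR quasi-likelihood test called 0 of 15359 genes (0%) at a Benjamini-Hochberg adjusted p under 0.05, and 986 genes (6.42%) had an unadjusted p under 0.05. DESeq2 called 20 genes, 11 higher and 9 lower in MI hearts, and voom with sample quality weights called 9, of which 8 were higher. In naive day 7 against newborn hearts edgeR called 0 genes, with 888 (5.78%) at an unadjusted p under 0.05, DESeq2 called 12 and voom 64. In MI against naive hearts of day 7 it called 0 genes, with 1936 (12.6%) at an unadjusted p under 0.05, while DESeq2 called 261 and voom 2047. These comparisons share the newborn, the MI or the naive day 7 pigs. The pigs are separate animals, with 3 or 4 in each group compared. The tests took the spread between pigs from all 21 libraries in 7 groups, not from the compared pigs alone. EdgeR also called 0 genes in each comparison when only the libraries of the groups compared were fitted.

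Counted without a model, the CPM of all 3 MI hearts lay outside the range of the 4 newborn hearts for 1296 of 15359 genes (8.44%), 700 (4.56%) above and 596 (3.88%) below it. Naive day 7 and newborn hearts failed to overlap for 1272 genes (8.28%). MI and naive hearts of day 7 failed to overlap for 3737 genes (24.3%), a comparison with 1 pig fewer, in which non-overlap is easier to reach.

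The distance between 2 hearts was taken as the root mean square difference in log2 CPM over all tested genes. It averaged 0.872 between MI day 7 and newborn hearts (0.665 to 1.17 over 12 pairs) and 0.847 among newborn hearts (0.781 to 0.954 over 6 pairs). Naive day 7 hearts lay at 0.836 from newborn hearts. MI replicates 1 and 2 lay at a mean of 0.785 and 0.764 from the newborn hearts and at 0.821 and 0.787 from the naive day 7 hearts. MI replicate 3 lay at 1.07 from newborn hearts and at 1.13 from naive day 7 hearts, beyond every distance between 2 newborn hearts. So 2 of the 3 MI hearts were as near to newborn hearts as those were to each other, and the third was not. Nearness on this measure was not particular to newborn hearts. MI day 7 hearts averaged 0.887 from naive day 14 and 0.860 from naive day 28 hearts. Newborn hearts averaged 0.838 and 0.826 from those groups, so this distance did not order the naive hearts by age.

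**Figure D1:**
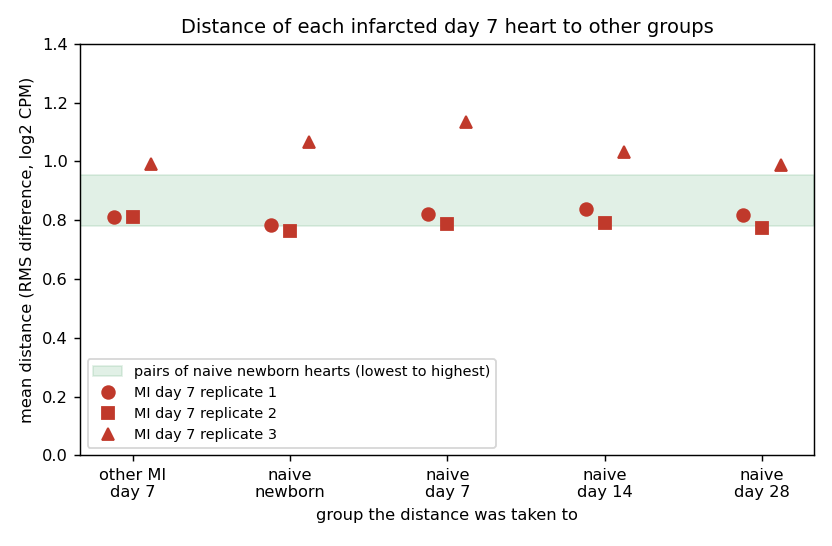
Mean distance (vertical axis, root mean square difference in log2 CPM over all tested genes) of each MI day 7 heart to the hearts of the groups on the horizontal axis, with the range between 2 newborn hearts shaded. Replicates 1 and 2 lie at 0.785 and 0.764 from newborn hearts and replicate 3 at 1.07, above the shaded range of 0.781 to 0.954.

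Nearly all nuclear genes of the mitochondrial respiratory chain had negative log2 fold changes in MI hearts against newborn hearts, and most also against naive day 7 hearts, though none was called. The nuclear genes of oxidative phosphorylation encode most subunits of the chain and of ATP synthase. Of 46 tested, edgeR called 0, and 45 had a negative log2 fold change in MI against newborn hearts, with a median of -0.44, against a median of 0.01 over all tested genes. The mean level of the list was 7.74, 7.95 and 7.67 log2 CPM in MI hearts, 8.12, 8.12 and 8.21 in naive day 7 hearts, 8.57 and 7.94 in newborn hearts of day 1 and 8.36 and 8.01 in newborn hearts of day 3. MI replicates 1 and 3 lay below every newborn heart, and MI replicate 2 lay level with the lowest of them. All 3 lay below the naive day 7 hearts. For 19 of the 46 genes all MI hearts lay below all newborn hearts, against 3.88% of all tested genes. Without MI replicate 3, all 46 were negative and the median was -0.42. In naive day 7 against newborn hearts, 33 of the 46 were negative and the median was -0.08, and in MI against naive day 7 hearts 43 were negative and the median was -0.36.

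NDUFC2, a subunit of complex I, which takes electrons from NADH (chromosome 9, 12486488 to 12492507 in Sscrofa11.1), had 156, 176 and 123 CPM in MI hearts, 181, 181 and 206 CPM in naive day 7 hearts, 311 and 184 CPM in newborn hearts of day 1 and 274 and 192 CPM in those of day 3. All MI hearts lay below all newborn hearts, at -0.66 on the log2 scale (SE 0.21, edgeR adjusted p = 0.757). The complex I subunit NDUFS3 and ATP5MC1, part of the membrane ring of ATP synthase, were chosen after their values were seen. NDUFS3 had 102, 123 and 88.1 CPM in MI hearts, against 232, 130, 173 and 134 CPM in newborn hearts, at -0.68 on the log2 scale (SE 0.22, edgeR adjusted p = 0.757). ATP5MC1 had 225, 254 and 167 CPM in MI hearts, against 562, 320, 544 and 267 CPM in newborn hearts (-0.97, SE 0.35, edgeR adjusted p = 0.757). In both, as in NDUFC2, the 4 newborn hearts split into 2 high and 2 low ones, with 1 of each on day 1 and on day 3, and the MI hearts lay below the low ones.

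The citric acid cycle and its feeder enzymes, which supply electrons to the chain, had 22 of 28 tested genes negative, a median of -0.24 and 0 called by edgeR. All MI hearts lay below all newborn hearts for 7 of the 28, against 3.88% of all tested genes. The malate dehydrogenase MDH1 (chromosome 3, 78247229 to 78263085) is the cytosolic enzyme of the malate-aspartate shuttle, which carries reducing power across the mitochondrial membrane. MDH1 had 679, 868 and 514 CPM in MI hearts, 1310, 1454 and 1503 CPM in naive day 7 hearts, and 1740, 968, 1634 and 992 CPM in newborn hearts. Its log2 fold change against newborn hearts was -0.96 (SE 0.29, edgeR adjusted p = 0.757), and against naive day 7 hearts the MI value was -1.05. Naive day 7 hearts lay within the newborn range and MI hearts below it.

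For the chain's subunits encoded in the mitochondrial genome the direction rested on MI replicate 3. Of these 13 genes, 10 had a positive log2 fold change with all MI hearts, with a median of 0.14 and 0 called by edgeR. Without MI replicate 3 all 13 were negative, with a median of -0.18, and with voom 10 were, with a median of -0.10. With a term for the 4 libraries low in ENSSSCG00000035520, 12 of the 13 were negative (median -0.16). COX1, the catalytic core of complex IV, had 41452, 51519 and 71136 CPM in MI hearts, against 60584, 64211, 44944 and 55443 CPM in newborn hearts. ATP8, a small ATP synthase subunit, had 613, 787 and 3667 CPM in MI hearts, 1739, 1975 and 1983 CPM in naive day 7 hearts and 548 to 807 CPM in newborn hearts. MI replicates 1 and 2 lay within the newborn range and MI replicate 3 far above it, 1.26 in log2 fold change (SE 0.69, edgeR adjusted p = 0.775) with that heart and -0.01 without it.

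Among genes of fuel choice, the fatty acid list had a median close to that of the citric acid cycle list. The glycolysis median lay nearer to that of all tested genes. Of 34 tested genes of fatty acid uptake and oxidation, 21 were negative (median -0.20), and of 31 glycolysis genes 19 were (median -0.05), with 0 called by edgeR in either. The fatty acid median was 0.13 against newborn hearts of day 1 alone. ACADM, which starts the oxidation of medium-chain fatty acids, had 274, 322 and 175 CPM in MI hearts, 397, 394 and 518 CPM in naive day 7 hearts and 332, 314, 363 and 408 CPM in newborn hearts (-0.47 against newborn, SE 0.21, edgeR adjusted p = 0.757). Its MI and newborn ranges overlapped by 1 heart. CPT1B, the muscle enzyme that lets fatty acids into mitochondria, had 529, 614 and 574 CPM in MI hearts, against 616, 264, 667 and 550 CPM in newborn hearts. PDK4, which keeps glucose carbon out of the cycle, spread from 184 to 863 CPM over MI hearts and from 12.7 to 1046 CPM over newborn hearts, and LDHA, of lactate metabolism, from 76.6 to 258 CPM and from 84.7 to 379 CPM. For these 3 genes the spread within the newborn group was wider than the difference between the group means. PFKFB4, which makes an activator of glycolysis, had 11.5, 8.83 and 22.5 CPM in MI hearts, 7.03, 4.08 and 7.32 CPM in naive day 7 hearts, and 10.3, 6.19, 9.39 and 9.82 CPM in newborn hearts, so that MI replicates 1 and 3 lay above the newborn range. PPARG, a nuclear receptor for fatty acids, had 4.10, 4.45 and 3.15 CPM in MI hearts, below the 4.81 to 10.04 CPM of newborn hearts (-0.72, SE 0.28, edgeR adjusted p = 0.757).

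**Figure D2:**
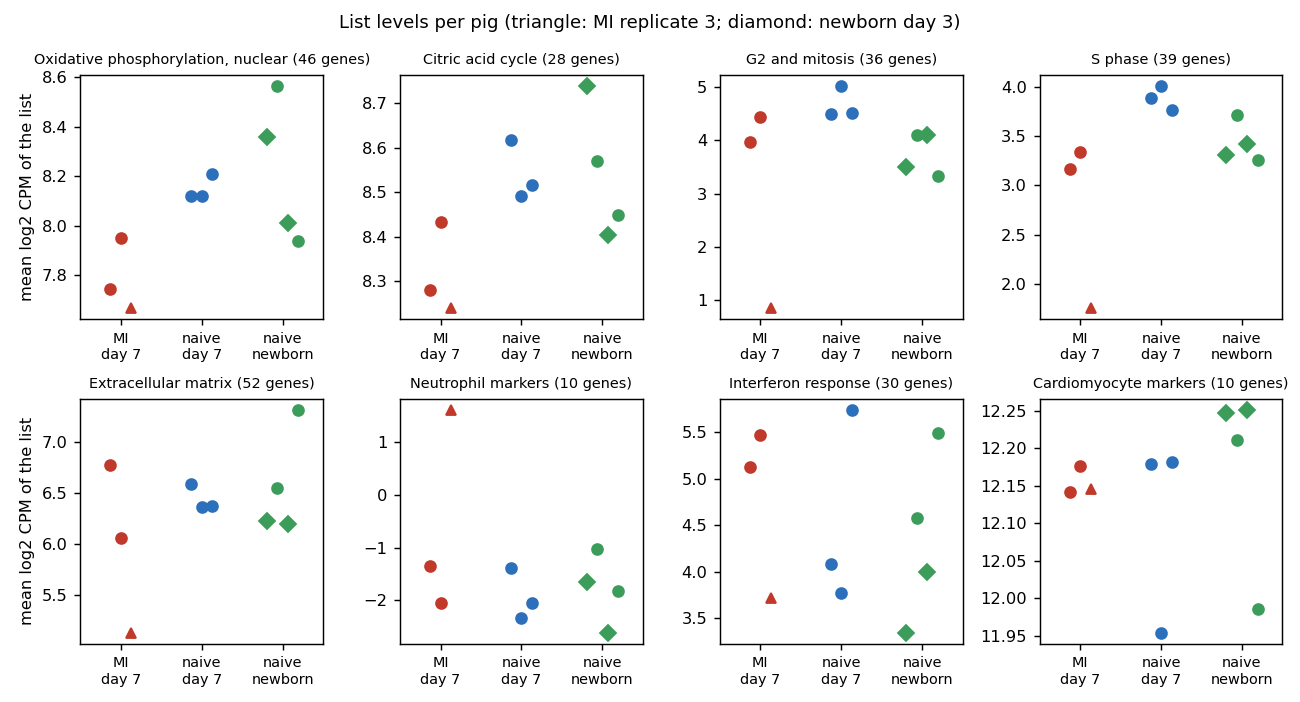
Mean level of 8 gene lists (vertical axes, log2 CPM, each panel with its own scale) in each MI day 7, naive day 7 and naive newborn heart, with MI replicate 3 as a triangle and newborn hearts of day 3 as diamonds. The oxidative phosphorylation list lies at 7.67 to 7.95 in MI hearts and 7.94 to 8.57 in newborn hearts, and MI replicate 3 is alone at 0.85 in the G2 and mitosis list and at 1.62 in the neutrophil list.

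By mean level, genes of G2 and mitosis lay within the newborn range in MI replicate 1. In MI replicate 2 they lay above that range and just below the lowest naive day 7 heart. In MI replicate 3 they lay far below both groups. The mean level of the 36 tested genes of G2 and mitosis was 3.96, 4.43 and 0.85 log2 CPM in MI hearts, 4.49, 5.02 and 4.51 in naive day 7 hearts, and 4.10, 3.34, 3.50 and 4.10 in newborn hearts. With all MI hearts, 24 of the 36 genes were negative against newborn hearts, with a median of -0.08. Without MI replicate 3, 34 were positive and the median was 0.40. All 36 were negative in MI against naive day 7 hearts (median -1.07), and without MI replicate 3 it was 34 of the 36 (median -0.54). All 36 were positive in naive day 7 against newborn hearts (median 0.94). Each of these 3 comparisons had 0 of the 36 called by edgeR. MI and newborn hearts failed to overlap for 0 of the 36, against 8.44% of all tested genes. For 18 of the 36 all MI hearts lay outside the range of the naive day 7 hearts, against 24.3% of all tested genes.

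Many genes of mitosis are read together through 2 short promoter motifs, the cell cycle genes homology region (CHR) and the CCAAT box. The promoters of 4 genes are shown because the genes differed in MI replicate 3: TOP2A, CCNB1 and CDC25C were low there, and CDC25B, another gene of entry into mitosis, was not. Each line is the 250 bases before the start of the RefSeq gene model in the Sscrofa11.1 genome, 5′ to 3′ along the gene, with each match to TTTGAA (CHR) or CCAAT, or to the reverse complements TTCAAA and ATTGG, in capitals. The TOP2A window is chr12:22001050-22001299 on the plus strand, the CCNB1 window chr16:47337989-47338238 on the plus strand, the CDC25C window chr2:140323697-140323946 on the minus strand and the CDC25B window chr17:31929419-31929668 on the minus strand.
TOP2A: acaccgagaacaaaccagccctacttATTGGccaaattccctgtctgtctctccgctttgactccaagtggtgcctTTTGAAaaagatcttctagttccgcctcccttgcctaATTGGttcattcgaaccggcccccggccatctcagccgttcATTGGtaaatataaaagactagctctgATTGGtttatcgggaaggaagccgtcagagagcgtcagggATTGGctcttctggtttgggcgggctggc
CCNB1: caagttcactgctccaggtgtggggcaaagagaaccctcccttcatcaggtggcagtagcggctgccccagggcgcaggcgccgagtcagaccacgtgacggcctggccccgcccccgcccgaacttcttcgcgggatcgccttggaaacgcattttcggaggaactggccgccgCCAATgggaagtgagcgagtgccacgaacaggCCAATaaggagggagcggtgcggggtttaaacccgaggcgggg
CDC25C: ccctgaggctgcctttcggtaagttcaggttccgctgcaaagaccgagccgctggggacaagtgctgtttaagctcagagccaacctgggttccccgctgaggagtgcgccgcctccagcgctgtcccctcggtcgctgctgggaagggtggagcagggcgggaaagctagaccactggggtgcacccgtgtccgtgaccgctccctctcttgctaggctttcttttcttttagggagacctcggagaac
CDC25B: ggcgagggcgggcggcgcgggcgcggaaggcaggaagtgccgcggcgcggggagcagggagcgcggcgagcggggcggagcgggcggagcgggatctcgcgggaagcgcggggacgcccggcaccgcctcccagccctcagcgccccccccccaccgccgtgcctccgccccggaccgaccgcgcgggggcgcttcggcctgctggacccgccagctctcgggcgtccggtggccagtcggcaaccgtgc
The TOP2A window holds 1 CHR match and 5 CCAAT matches, the CCNB1 window 0 and 2, and the CDC25C and CDC25B windows 0 of either, none of them overlapping. The search covered only these 250 bases and these exact letters, so sites elsewhere or with other letters were not counted. Whether the motifs have a part in the values of MI replicate 3 was not tested. Of the 36 windows of G2 and mitosis genes, 33.3% hold the CHR letters, 52.8% hold the CCAAT letters and 22.2% hold both. Of the 19544 windows of all protein-coding genes, 12.5%, 31.9% and 4.2% do. A match is a description of letters, and binding was not measured.

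TOP2A, which untangles DNA for chromosome separation, had 77.2, 106 and 4.84 CPM in MI hearts, 83.2, 146 and 93.8 CPM in naive day 7 hearts, and 82.5, 50.9, 60.9 and 70.9 CPM in newborn hearts. CCNB1, the cyclin that drives entry into mitosis, had 19.8, 34.9 and 1.37 CPM in MI hearts, 36.0, 66.9 and 43.5 CPM in naive day 7 hearts, and 17.3, 11.0, 11.3 and 27.0 CPM in newborn hearts. In both genes MI replicates 1 and 2 lay within or above the newborn range and MI replicate 3 was the lowest heart by far. Their log2 fold changes against newborn hearts were -0.08 (SE 0.74, edgeR adjusted p = 0.988) and 0.17 (SE 0.79, edgeR adjusted p = 0.975). MKI67, a protein of cycling cells, behaved less evenly, with 138, 116 and 23.5 CPM in MI hearts, 74.4, 50.5 and 173 CPM in naive day 7 hearts, and 140 and 135 CPM in newborn hearts of day 1 and 36.6 and 62.2 CPM in those of day 3. MI replicates 1 and 2 were near the day 1 hearts. CDC25C, a phosphatase that switches on the mitotic kinase, had 2.39, 2.82 and 0.818 CPM in MI hearts, against 3.32, 1.90, 3.17 and 3.08 CPM in newborn hearts (-0.51, SE 0.40, edgeR adjusted p = 0.825).

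Most DNA replication and S phase genes, which copy the genome before division, had negative log2 fold changes against newborn hearts, with MI replicate 3 the lowest heart by far. Their mean level was 3.16, 3.34 and 1.76 log2 CPM in MI hearts, 3.89, 4.01 and 3.76 in naive day 7 hearts, and 3.71, 3.25, 3.31 and 3.42 in newborn hearts. Against newborn hearts, 37 of 39 tested genes were negative (median -0.41), 0 were called by edgeR, and 31 were negative without MI replicate 3 (median -0.23). All 39 were negative against naive day 7 hearts with all MI hearts (median -1.02) and without MI replicate 3 (median -0.66). For 33 of them MI and naive day 7 hearts did not overlap, against 24.3% of all tested genes. Naive day 7 hearts had 36 of 39 positive against newborn hearts (median 0.42). PRIM2, a subunit of the primase that starts each DNA strand (chromosome 7, 28274626 to 28566633), had 6.11, 7.13 and 4.92 CPM in MI hearts, 10.7, 14.8 and 12.6 CPM in naive day 7 hearts, and 11.12, 7.25, 10.8 and 8.70 CPM in newborn hearts. All MI hearts lay below all others, with a log2 fold change of -0.65 against newborn hearts (SE 0.26, edgeR adjusted p = 0.757). In bulk tissue, fewer cells of a type and less RNA per cell cannot be told apart.

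The genes with the smallest p in MI against newborn hearts were 2 that lay above and 1 that lay below the newborn level. They stand outside the rule by which the other genes are named and were chosen after their values were seen, and edgeR called 0 of them. CDC25B, a phosphatase of the mitotic kinases (chromosome 17, 31910824 to 31929418), had 63.6, 80.8 and 80.3 CPM in MI hearts, 39.8, 50.4 and 43.2 CPM in naive day 7 hearts, and 34.7, 26.0, 40.6 and 39.5 CPM in newborn hearts. MI hearts lay above all others, MI replicate 3 included. The log2 fold change against newborn hearts was 1.09 (SE 0.18), with an adjusted p of 0.122 by edgeR, 2.51e-05 by DESeq2 and 0.0098 by voom. TEAD3, a DNA-binding partner of the growth regulator YAP (chromosome 7, 31337890 to 31351452), had 45.7, 43.0 and 39.7 CPM in MI hearts, 27.6, 19.9 and 25.8 CPM in naive day 7 hearts, and 18.7, 22.6, 28.2 and 25.0 CPM in newborn hearts. Naive day 7 hearts overlapped newborn hearts, at a log2 fold change of 0.05, and MI hearts lay above both, at 0.86 over newborn hearts (SE 0.17, adjusted p = 0.587 by edgeR, 0.00941 by DESeq2 and 0.0224 by voom).

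ABCB9, a peptide transporter of the lysosome (chromosome 14, 29895752 to 29935571), had 0.660, 1.11 and 0.581 CPM in MI hearts, 2.30, 1.78 and 1.33 CPM in naive day 7 hearts, and 6.004, 3.73, 5.96 and 4.29 CPM in newborn hearts. The 3 groups did not overlap, and the naive day 7 hearts lay between the others. Its log2 fold change against newborn hearts was -2.66 in MI hearts (SE 0.49, adjusted p = 0.298 by edgeR, 2.33e-05 by DESeq2 and 0.00656 by voom) and -1.47 in naive day 7 hearts (SE 0.47, edgeR adjusted p = 0.647). DESeq2 and voom both called 6 genes, which were CDC25B, TEAD3, ABCB9, SMTNL2, CCDC85C and PRKAG2. Voom gave MI replicate 3 a weight of 0.363, against 1.84 and 2.43 for MI replicates 1 and 2. PRKAG2, a regulatory subunit of the energy sensor AMP kinase, had 148, 115 and 58.4 CPM in MI hearts, against 43.0, 50.1, 47.8 and 40.9 CPM in newborn hearts (1.24, SE 0.29, edgeR adjusted p = 0.629). SMTNL2 and CCDC85C had log2 fold changes of 0.79 and 0.99 with no overlap between the groups.

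**Figure D3:**
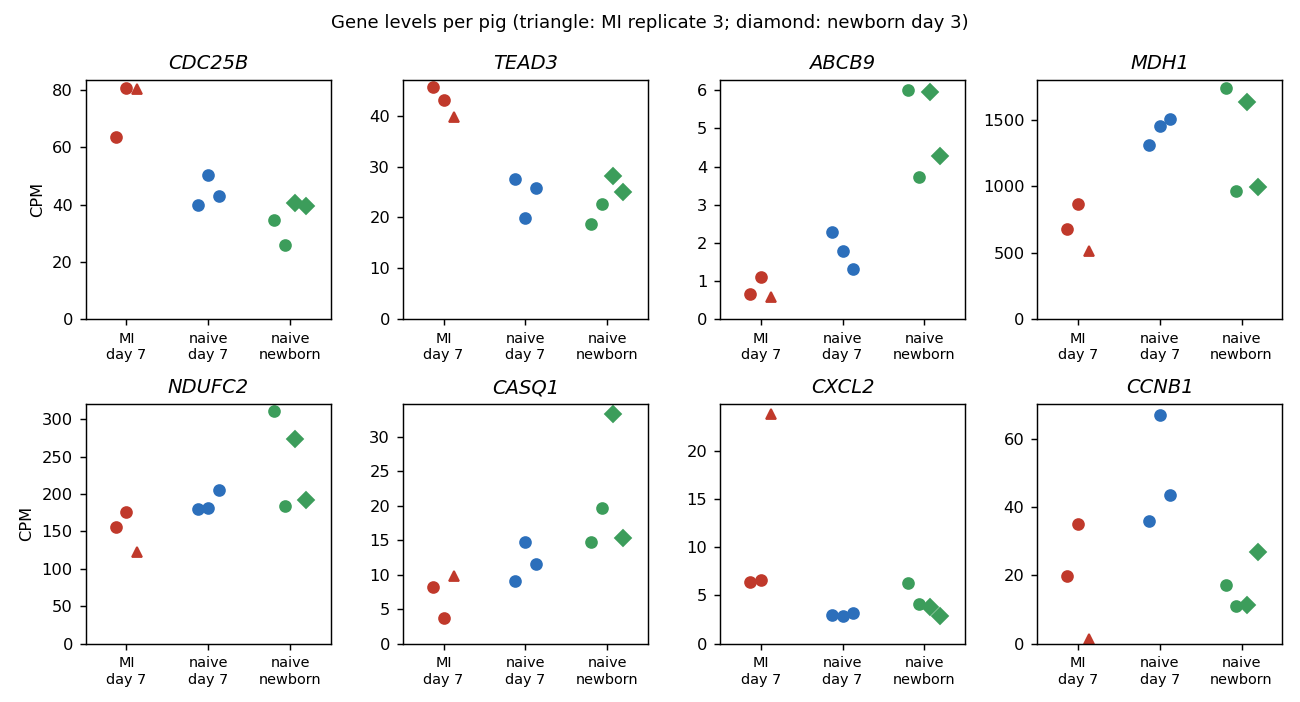
CPM (vertical axes, each from 0) of 8 genes in each MI day 7, naive day 7 and naive newborn heart, with MI replicate 3 as a triangle and newborn hearts of day 3 as diamonds. CDC25B and TEAD3 lie above and ABCB9 below both naive groups in all 3 MI hearts, while for CXCL2 and CCNB1 the triangle lies far from the other MI hearts.

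Genes of the contractile apparatus lay near their newborn level, with the summed sarcomere level slightly below it. The mean level of the cardiomyocyte markers was 12.14, 12.18 and 12.15 log2 CPM in MI hearts, against 11.99 to 12.25 in newborn hearts. Sarcomere genes had 12 of 26 positive and a median of -0.06, and calcium handling genes and ion channels 15 of 21 positive and a median of 0.18, with 0 called by edgeR in either. The sarcomere genes summed to 99259 to 102683 CPM in MI hearts, below the 103131 to 113324 CPM of newborn hearts. In naive day 7 hearts their sum was 93416 to 110223 CPM. Their mean level in MI replicate 3, 9.73 log2 CPM, lay below the newborn range of 9.94 to 10.10. MYH7, the slow myosin heavy chain, had 32112, 32078 and 41745 CPM in MI hearts, against 25983, 31893, 36250 and 37866 CPM in newborn hearts. TNNI1, the fetal slow troponin I, had 913, 730 and 958 CPM in MI hearts, 650, 775 and 692 CPM in naive day 7 hearts, and 1009, 570, 1031 and 395 CPM in newborn hearts. TNNC1, the calcium-binding troponin (chromosome 13, 34591571 to 34594320), had 3439, 3698 and 3996 CPM in MI hearts and 3367, 3470 and 3937 CPM in naive day 7 hearts, both below the 4032 to 5896 CPM of newborn hearts (-0.32 in MI hearts, SE 0.21, edgeR adjusted p = 0.794). The myosin heavy chain MYH6 and the adult troponin TNNI3 were not among the genes tested.

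CASQ1, a calcium store protein best known from skeletal muscle (chromosome 4, 90276752 to 90288990), had 8.29, 3.79 and 9.78 CPM in MI hearts, 9.11, 14.7 and 11.6 CPM in naive day 7 hearts, and 14.8, 19.6, 33.2 and 15.3 CPM in newborn hearts. All MI hearts lay below all newborn hearts, by -1.51 (SE 0.38, edgeR adjusted p = 0.740, DESeq2 adjusted p = 0.0499, voom adjusted p = 0.126). XIRP2, an actin-binding protein of the intercalated disc, had 25.2, 15.6 and 2.34 CPM in MI hearts, 65.0, 30.6 and 53.0 CPM in naive day 7 hearts, and 15.6, 183, 22.5 and 111 CPM in newborn hearts (-2.53, SE 0.93, edgeR adjusted p = 0.757). The lowest newborn heart, at 15.61 CPM, lay just above MI replicate 2, at 15.56 CPM, and below MI replicate 1, and MI replicate 3 was the lowest heart.

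Fetal growth genes were tested for 15 members, of which 10 were positive (median 0.13), with 0 called by edgeR. PLAGL1, an imprinted zinc finger gene of fetal growth (chromosome 1, 21299830 to 21371070), had 33.9, 32.1 and 44.0 CPM in MI hearts, 32.5, 32.6 and 34.7 CPM in naive day 7 hearts, and 26.0, 26.8, 28.5 and 29.1 CPM in newborn hearts. Both day 7 groups lay above the newborn range, at log2 fold changes of 0.41 (SE 0.14, edgeR adjusted p = 0.757) and 0.27. IGF2BP3, a fetal RNA-binding protein, had 9.71, 11.7 and 13.5 CPM in MI hearts, against 14.6, 7.84, 12.5 and 9.81 CPM in newborn hearts. IGF2 and LIN28B were not among the genes tested.

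The hormones of a strained heart overlapped between the groups. NPPA, atrial natriuretic peptide, had 1398, 223 and 80.8 CPM in MI hearts, 34.7, 313 and 24.3 CPM in naive day 7 hearts, and 79.5, 234, 398 and 11.8 CPM in newborn hearts (1.65 against newborn, SE 1.32, edgeR adjusted p = 0.826). NPPB, its B-type relative, had 226, 80.8 and 34.0 CPM in MI hearts, 4.87, 78.8 and 13.8 CPM in naive day 7 hearts, and 5.80, 316, 48.6 and 1.90 CPM in newborn hearts. MI replicate 1 was the highest heart for NPPA, and 1 newborn heart of day 1 for NPPB. The atrial marker list summed to 237 to 1976 CPM in MI hearts and 107 to 521 CPM in newborn hearts, and its part in the natriuretic values was not tested. The chaperone CRYAB had 209, 223 and 102 CPM in MI hearts, against 260, 355, 310 and 208 CPM in newborn hearts (-0.67, SE 0.25, edgeR adjusted p = 0.757).

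Most matrix genes, which build the scar in later injury, had negative log2 fold changes against newborn hearts, while the groups overlapped for 50 of 52. Of the 52 tested extracellular matrix genes, 50 were negative, with a median of -0.60 and 0 called by edgeR. Their mean level was 6.78, 6.06 and 5.13 log2 CPM in MI hearts, 6.59, 6.36 and 6.37 in naive day 7 hearts, and 6.54, 7.31, 6.23 and 6.20 in newborn hearts. MI replicate 1 lay within the newborn range and the other MI hearts below it, replicate 3 the furthest. Without MI replicate 3, 43 were negative and the median was -0.31. The median was -0.21 against newborn hearts of day 3 alone, where 35 were negative, and -0.84 against those of day 1 alone. Groups failed to overlap for 1 gene in each direction, against 4.56% of all tested genes above and 3.88% below the newborn range. COL1A1, the main scar collagen, had 1436, 737 and 314 CPM in MI hearts, 2026, 1196 and 1597 CPM in naive day 7 hearts, and 2048, 3046, 1520 and 1380 CPM in newborn hearts (-1.27, SE 0.75, edgeR adjusted p = 0.789). COL3A1, a collagen of soft tissue, had 3107, 1741 and 428 CPM in MI hearts, against 2271, 6212, 1886 and 3287 CPM in newborn hearts. POSTN, made by activated fibroblasts, had 232, 65.5 and 29.3 CPM in MI hearts, against 157, 247, 103 and 147 CPM in newborn hearts.

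Markers of the cells that make matrix were mostly negative too. The 15 fibroblast markers summed to 1915 to 7578 CPM in MI hearts, 7328 to 8085 CPM in naive day 7 hearts and 5975 to 14410 CPM in newborn hearts, and 13 of the 15 were negative (median -0.42). Their part in the matrix values was not tested, and 5 of them, COL1A1 and COL3A1 included, are also in the matrix list. MFAP5, a microfibril protein, had 65.2, 53.3 and 22.6 CPM in MI hearts, 88.4, 117 and 112 CPM in naive day 7 hearts, and 89.4, 101, 60.9 and 108 CPM in newborn hearts (-0.93, SE 0.31, edgeR adjusted p = 0.757). MMP9, a matrix protease that neutrophils carry, had 0.125, 0.690 and 1.33 CPM in MI hearts, above the 0.0170 to 0.0812 CPM of newborn hearts and overlapping the 0.162, 0.445 and 0.064 CPM of naive day 7 hearts. Its log2 fold change against newborn hearts was 3.67 (SE 0.93, edgeR adjusted p = 0.740).

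Marker lists of several other tissue components had mostly negative log2 fold changes. Endothelial markers had 12 of 13 negative (median -0.32), and against newborn hearts of day 3 alone the median was 0.04. CA4, an enzyme of capillary endothelium, had 28.8, 27.4 and 27.0 CPM in MI hearts, against 83.1, 45.9, 28.2 and 33.8 CPM in newborn hearts. VEGFD, a growth factor of lymphatic vessels (chromosome X, 11893254 to 11933923), had 2.69, 3.90 and 4.07 CPM in MI hearts, 10.1, 6.93 and 9.76 CPM in naive day 7 hearts, and 9.61, 4.36, 6.43 and 11.3 CPM in newborn hearts. All MI hearts lay below all others, by -1.16 against newborn hearts (SE 0.45, edgeR adjusted p = 0.757). The smooth muscle and pericyte list was split, with 6 of 13 positive and 7 negative (median -0.10). It summed to 6342 to 8275 CPM in MI hearts and 5876 to 9622 CPM in newborn hearts. Its member CSPG4, a proteoglycan of pericytes, had 36.97, 26.3 and 15.4 CPM in MI hearts, against 51.3, 61.8, 28.9 and 27.3 CPM in newborn hearts. Schwann cell and nerve markers had 6 of 7 negative (median -1.76, and -1.33 without MI replicate 3), and summed to 6.02 to 20.2 CPM in MI hearts and 12.8 to 55.5 CPM in newborn hearts. Epicardial markers had 6 of 6 negative (median -0.80), at 35.4 to 57.1 CPM in sum in MI hearts and 48.7 to 79.6 CPM in newborn hearts. Erythroid markers had 6 of 6 negative (median -1.28), at 68.9 to 112 CPM in sum in MI hearts, 174 to 455 CPM in naive day 7 hearts and 81.5 to 382 CPM in newborn hearts. EdgeR called 0 genes of these lists. The epicardial marker UPK3B, the B cell marker MS4A1, the complement component C5, the muscle protein MYBPC2, the red cell gene SLC4A1 and the atrial gene BMP10 had mean levels under 2 CPM in both groups.

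The direction of inflammatory genes changed with the newborn hearts taken. With 2 pigs at each newborn age, age and pig cannot be told apart. The cytokine median also changed sign when some single pigs, newborn or MI, were left out. With both ages joined, cytokines and chemokines had 17 of 35 positive (median -0.00) and macrophage markers 13 of 27 (median -0.12), with 0 called by edgeR. Against newborn hearts of day 3 alone, 28 of the 35 cytokine genes (median 0.59) and 21 of the 27 macrophage markers (median 0.41) were positive. Against those of day 1 alone, 22 of the 35 (median -0.30) and 23 of the 27 (median -0.37) were negative. Macrophage markers summed to 425 to 793 CPM in MI hearts and 393 to 842 CPM in newborn hearts. The lysosomal macrophage protein CD68 had 9.78, 5.21 and 6.31 CPM in MI hearts, against 6.84, 9.71, 3.45 and 7.26 CPM in newborn hearts. LYZ, the lysozyme of myeloid cells, had 18.99, 4.36 and 9.53 CPM in MI hearts, 3.06, 8.41 and 10.6 CPM in naive day 7 hearts, and 6.21, 6.19, 1.38 and 2.27 CPM in newborn hearts (1.45, SE 0.74, edgeR adjusted p = 0.759). Lymphocyte markers summed to 11.5 to 23.1 CPM in MI hearts and 6.52 to 33.0 CPM in newborn hearts. CXCL2, a chemokine that draws neutrophils, had 6.35, 6.63 and 23.8 CPM in MI hearts, 3.00, 2.82 and 3.23 CPM in naive day 7 hearts, and 6.33, 4.14, 3.78 and 2.87 CPM in newborn hearts. The MI hearts lay above every newborn heart, replicate 1 by 0.02 CPM, at 1.52 in log2 fold change (SE 0.44, edgeR adjusted p = 0.757) and at 0.60 without MI replicate 3.

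Neutrophil markers were high in 1 MI heart. The list had 10 of 10 positive and a median of 2.47 with all MI hearts, and 3 of 10 positive and a median of -0.43 without MI replicate 3, with 0 called by edgeR. It summed to 6.58 to 44.0 CPM in MI hearts, 7.59 to 9.93 CPM in naive day 7 hearts and 4.77 to 12.96 CPM in newborn hearts. Its mean level was -1.35, -2.05 and 1.62 log2 CPM in MI hearts, against -1.03, -1.82, -1.64 and -2.61 in newborn hearts. The heart with the neutrophil markers was thus the one with the lowest cell cycle and matrix levels, and the part of either in the other was not tested.

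The interferon list was higher in the other 2 MI hearts than in MI replicate 3. Its mean level was 5.13, 5.47 and 3.71 log2 CPM in MI hearts, 4.08, 3.77 and 5.74 in naive day 7 hearts, and 4.58, 5.49, 3.34 and 4.00 in newborn hearts. Of 30 tested genes 27 were positive (median 0.32), with 0 called by edgeR. Without MI replicate 3, 30 were positive (median 0.65), and without MI replicate 2, 15 were positive and 15 negative (median -0.0041). The median was 1.14 against newborn hearts of day 3 alone and -0.18 against those of day 1 alone. DDX60, an interferon-induced helicase, had 42.5, 46.1 and 5.32 CPM in MI hearts, 6.95, 8.68 and 33.6 CPM in naive day 7 hearts, and 9.02, 25.0, 3.25 and 8.10 CPM in newborn hearts (1.47, SE 0.73, edgeR adjusted p = 0.757). Each of the groups, the naive ones included, held hearts with high and hearts with low levels.

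Immediate early genes, switched on within minutes by many stimuli, had 14 of 22 positive (median 0.28) with 0 called by edgeR, and the MI hearts all lay above the newborn hearts for 3 and below them for 1, against 4.56% and 3.88% of all tested genes. ZFP36, which destabilises cytokine RNAs, had 38.4, 35.5 and 79.3 CPM in MI hearts, 28.6, 29.4 and 29.1 CPM in naive day 7 hearts, and 37.1, 29.4, 28.1 and 26.9 CPM in newborn hearts (0.75, SE 0.29, edgeR adjusted p = 0.757, and 0.28 without MI replicate 3). The growth regulator MYC had 19.3, 16.1 and 46.0 CPM in MI hearts, 11.06, 13.7 and 10.5 CPM in naive day 7 hearts, and 22.0, 14.6, 16.9 and 14.8 CPM in newborn hearts. HIF3A, a relative of the hypoxia factors that glucocorticoids induce, had 9.56, 7.59 and 33.2 CPM in MI hearts, against 4.34, 3.32, 8.53 and 9.09 CPM in newborn hearts. In all 3 genes MI replicate 3 was the highest heart and MI replicates 1 and 2 lay within the newborn range or just past it. Translation factors and ribosome biogenesis genes had 22 of 32 positive (median 0.14), and EEF2, which moves the ribosome along, had 3265, 3141 and 4861 CPM in MI hearts, against 2475, 2076, 2812 and 3300 CPM in newborn hearts. HSPE1, a mitochondrial chaperonin (chromosome 15, 101374019 to 101376146), had 81.9, 87.3 and 71.5 CPM in MI hearts, below the 94.8 to 159 CPM of newborn hearts and overlapping the 78.6 to 115 CPM of naive day 7 hearts (-0.67, SE 0.26, edgeR adjusted p = 0.757).

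Over the 36 lists, the medians of the respiratory chain, citric acid cycle, S phase, hypoxia, matrix, fibroblast, epicardial, lymphocyte, Schwann cell and erythroid lists were negative in the comparison as reported and in each of 18 alternative fits. The medians of the fetal growth, cardiac growth regulator, translation and immediate early lists were positive in all of them. For the nuclear respiratory chain genes they ran from -0.54 to -0.34 and for the matrix genes from -1.10 to -0.21. The medians of mitosis (-0.71 to 0.40), neutrophil (-0.46 to 3.34) and mitochondrially encoded genes (-0.20 to 0.29) changed sign in at least 1 of them.

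**Figure D4:**
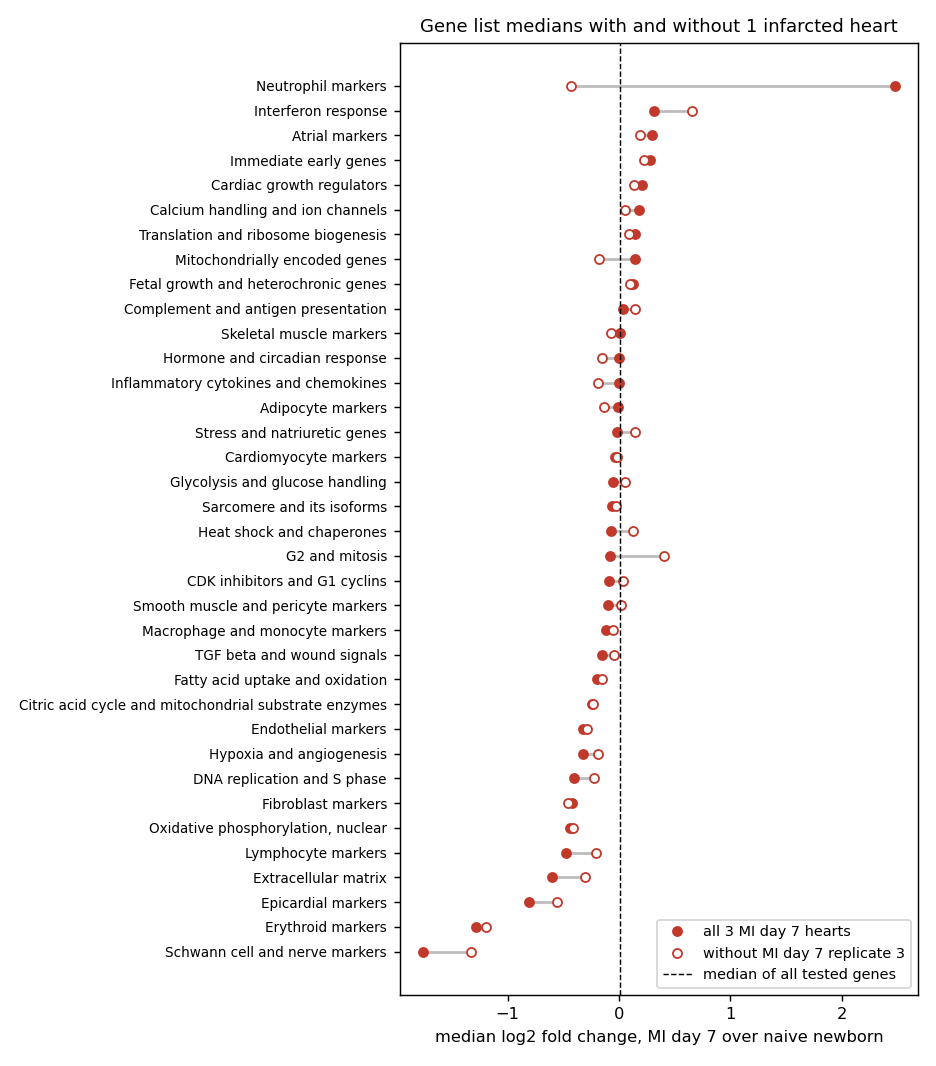
Median log2 fold change of each gene list (rows) in MI day 7 over naive newborn hearts (horizontal axis), with all 3 MI hearts (filled) and without MI replicate 3 (open), and the median of all tested genes as a dashed line. Leaving out that heart takes the neutrophil list to -0.43 and the G2 and mitosis list to 0.40, while the oxidative phosphorylation list moves to -0.42.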

How the data were processed

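Total RNA of heart tissue from 21 pigs was sequenced, 1 library per pig. The authors deposited raw read counts, whole numbers for 25880 Ensembl genes, with no normalization. Per the submitters' processing notes, Trim Galore, STAR 2.5.2, HTSeq 0.6.1 and DESeq2 were used with the Sscrofa11.1 build. The sources used here give neither annotation release nor strand setting, so reads of overlapping or near-identical genes may be misassigned.

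Groups and libraries were matched by the pig numbers in the titles. All 21 libraries, in 7 groups with newborn days 1 and 3 joined, entered 1 fit (edgeR 4.0.16 in R 4.3.3, filterByExpr, 15359 genes, trimmed mean of M values, robust glmQLFit, residual degrees of freedom 14), with 3 contrasts, two-sided tests and Benjamini-Hochberg adjustment over 15359 genes. A gene was called at an adjusted p under 0.05. Log2 fold changes come from this fit, their standard errors (SE) from its F statistic, and CPM values were computed from the deposited counts with scaled library sizes. Levels of lists are means of log2 CPM with a prior count of 2. Libraries of 1 group differed by more than counting noise. The fit was tested on simulated data for MI day 7 against newborn hearts. It called 40.3% of genes changed 2-fold, 74.6% of those changed 4-fold and 89.4% of those changed 8-fold. It also called 3 unchanged genes. Most 2-fold changes were thus missed. The simulated data held no heart made to stand apart as MI replicate 3 did. Alternatives were DESeq2 1.42.0, voom of limma 3.58.1 and other settings given in the closing section. Figures were drawn with matplotlib 3.10.9. Gene positions and promoter windows are from the RefSeq annotation of Sscrofa11.1, the authors' build.

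The members, 36 gene lists and settings were chosen with earlier results of these data known. Named genes are up to 3 called members of each list with the smallest adjusted p, or the 1 with the smallest where 0 were called, the largest called changes (there were 0), and 20 genes always named where tested. Genes outside this rule are said to be so. Of the genes the rule names, 2 are not reported here.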

Additional observations from a re-analysis of the deposited data

Results flagged for a closer look

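In the newborn group of 4 hearts, the highest or lowest heart was compared with the group's range for 85 gene or list levels, and in 6 of them it stood apart beyond Dixon's 95% critical value for the gap over the range. Chance gives about 1 in 20 such groups.

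NPPB stood at 316 CPM in 1 heart of day 1. UPK3B, an epicardial marker, stood at 1.17 CPM and BMP10, an atrial growth factor, at 0.112 CPM in 1 heart of day 3. SLC4A1, an anion exchanger of red cells, stood at 5.17 CPM in the other heart of day 1. CDC25C was low at 1.90 CPM, and the mean level of the cardiomyocyte markers was low at 11.99 log2 CPM, in the heart of day 1 with the high NPPB. These values bear on the newborn side of each comparison with MI day 7 hearts, and their causes were not tested.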

How the results depend on the processing

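EdgeR called 0 genes in each comparison under each alternative run for it that kept edgeR. These were RLE size factors, no filter on low counts, mitochondrially encoded genes left out, a term for the 4 libraries of the second set (those low in ENSSSCG00000035520, MI replicate 3 among them), those libraries left out, only the libraries compared, newborn day 1 and day 3 as separate groups or alone (run for the 2 comparisons with newborn hearts), and each pig of the groups compared left out in turn. DESeq2 called 20 genes in MI against newborn, 12 in naive day 7 against newborn and 261 in MI against naive day 7 hearts. Voom with sample quality weights called 9, 64 and 2047. Its weights were uneven, at 1.84, 2.43 and 0.363 for the MI day 7 hearts and 0.871, 1.35 and 4.83 for the naive day 7 hearts. Over genes with a mean log2 CPM over 3, the distances were 0.546 (MI day 7 to newborn), 0.558 (MI to naive day 7) and 0.475 (naive day 7 to newborn). The count of genes whose MI and newborn hearts did not overlap was 1304 with RLE factors and 1780 to 2442 with 1 pig left out, an alternative chosen after seeing the data and one in which fewer pigs make non-overlap easier.

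Of 858 log2 fold changes of named genes under the alternatives, 807 kept their direction and side of the threshold, 50 changed sign, and 1, that of CASQ1, passed it under DESeq2. For the changes of sign below, the cause was not tested. With the term for the second set, CPT1B stood at -0.026, MYH7 at -0.012 and CD68 at -0.17. Without the second set, MYH7 stood at -0.062, IGF2BP3 at -0.087, TOP2A at 0.45, MKI67 at 0.41 and ATP8 at -0.032. With newborn days as 2 groups, PDK4 stood at 0.33 and MKI67 at 0.17. Against day 1 alone, PDK4 stood at 1.84, NPPB at -0.50 and CD68 at -0.22. Against day 3 alone, LDHA stood at 0.056, CPT1B at -0.088, MYH7 at -0.070, CCNB1 at -0.031, COX1 at 0.12 and MKI67 at 0.91. With voom, LDHA stood at 0.38, MYH7 at -0.056, TOP2A at 0.15 and MKI67 at 0.57. With 1 pig left out, NPPA ranged from -0.25 to 2.39, NPPB from -0.70 to 2.60, COX1 from -0.28 to 0.12, CD68 from -0.24 to 0.28, PDK4 from -1.37 to 0.17, CCNB1 from -0.65 to 0.72, LDHA from -0.83 to 0.13, MYH7 from -0.040 to 0.17, IGF2BP3 from -0.083 to 0.21, TOP2A from -0.69 to 0.47, MKI67 from -0.42 to 0.44, ATP8 from -0.008 to 1.66, TNNI1 from -0.0053 to 0.40 and CPT1B from -0.095 to 0.26. No paired analysis was possible because the labels give pig numbers and no replicate numbers shared between groups. MI day 7 libraries were deeper than the naive ones. For genes under 1 CPM, such as MMP9, few reads stand behind a value, and their fold changes have wide errors.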
